A study of Mus musculus with 12 samples.

Results

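Late clearance was compared between WT oocytes and oocytes of Alkbh5-/- mice (KO), as the change from germinal vesicle breakdown (GVBD) to metaphase II (MII) in KO minus the same change in WT. All 20992 transcripts that passed the filter on low counts were members of the comparison, and it used 8 of the 12 libraries of the series, with 2 libraries in each of WT GVBD, WT MII, KO GVBD and KO MII. A positive value, given throughout on the log2 scale, means that a transcript fell less, or rose more, in KO than in WT.

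The oocytes came from females aged 3 weeks on a C57BL/6 background that had been primed with PMSG, a hormone that drives follicle growth, and they matured in M16 medium outside the follicle. They were collected after 4 h as GVBD and after 16 h as MII, and the germinal vesicle (GV) libraries taken at 0 h did not enter the comparison. KO mice lacked the first exon of Alkbh5, with the start codon, in every cell of the body, so the growth of the oocyte and its surrounding follicle cells took place without the gene as well. Many KO oocytes did not complete maturation in culture, so that the KO libraries labelled GVBD and MII may hold oocytes at other stages, and the effect of stage and that of genotype cannot be told apart in those libraries. The sources differ on how libraries were begun: the labels describe purification on oligo(dT) beads, and the methods describe reverse transcription of polyadenylated mRNA from lysed oocytes. Both read RNA through its poly(A) tail, so fewer molecules and shorter tails cannot be told apart either.

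A fully grown mouse oocyte is transcriptionally silent and lives on stored maternal mRNA. When meiosis resumes, some stored mRNAs are polyadenylated and translated, while many others lose their poly(A) tails through the CCR4-NOT deadenylase and are degraded, and this clearance continues through MII. ALKBH5 removes the methyl group from N6-methyladenosine (m6A), the most common internal mark of mRNA. Reader proteins recognise the mark, and their effects differ: YTHDF2 binds transcripts bound for decay, and IGF2BP proteins stabilise theirs. In WT oocytes from GV to MII, the study reports that transcripts without m6A were lost faster than those with it. It proposes that IGF2BP2 stabilises a subset of marked transcripts in KO.

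The 8 libraries held 29968490 to 40247810 counts in genes and ERCC spike-ins, and between 19837 and 24436 genes had at least 1 count. Counts were divided by a factor proportional to the summed ERCC spike-in counts of the library (245723 to 838409), so the scaled counts below compare amounts of RNA per spike-in and not shares of the library. The ERCC factor separated libraries of the same group: endogenous counts per ERCC count were 112 and 75.3 in WT GVBD, 73.3 and 47.0 in WT MII, 121 and 98.5 in KO GVBD, and 87.9 and 54.7 in KO MII. Alkbh5 itself, the deleted gene, had scaled counts of 3224 to 14575 in the 4 WT libraries and 54.3 to 133 in the 4 KO libraries. Oocyte markers (11 genes such as Zp1 to Zp3 and Gdf9) made up 0.962% to 1.61% of endogenous counts in all 8 libraries, and none was at 0. Genes of other tissues were present unevenly, however. The 10 blood and immune markers made up 0.201% and 0.181% of WT GVBD, 0.0571% of KO MII replicate 1, and at most 0.00553% of each of the other 5 libraries. Some cardiac genes such as Tnnt2 were at 0 in KO GVBD replicate 1 and in both KO MII libraries, and present in the other 5. Others were present in all 8. Summed, the 10 cardiac markers made up 0.0943% and 0.0919% of WT GVBD and 0.0242% and 0.0141% of WT MII. In KO they made up 0.0408% and 0.0714% at GVBD and 0.0278% and 0.00825% at MII. Epidermal Krt14 and Krt5 were present only in the 2 WT GVBD libraries among the 8. Liver markers made up 0.0121% to 0.0575% of 1 library of each group and at most 0.000268% of the other 4. Results on those genes are given separately at the end.

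The total of polyadenylated RNA was lower at MII than at GVBD in both genotypes. Endogenous counts per ERCC count went from a mean of 93.9 ± 26.3 (SD, n = 2) at GVBD to 60.1 ± 18.6 (n = 2) at MII in WT, a ratio of 0.641, and from 110 ± 15.9 (n = 2) to 71.3 ± 23.5 (n = 2) in KO, a ratio of 0.65. In bulk libraries, fewer oocytes in a pool and less RNA in each oocyte cannot be told apart.

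In WT, 2537 of 20992 transcripts were called lower at MII than at GVBD (12.1%) and 35 higher (0.167%), together 12.3%. In KO 1136 were called lower (5.41%) and 10 higher (0.0476%), together 5.46%. A call needed an adjusted p below 0.05 in edgeR's quasi-likelihood test and a change of at least 1 log2 unit. The median transcript changed by -1.17 in WT and -0.91 in KO. The study calls the libraries of a group biologically independent, but the labels do not tie them to separate animals, so p-values measure the spread between these libraries, part of which may be technical. Both counts rested on the ERCC scaling. With TMM scaling, which takes most transcripts as unchanged, the median became -0.20 in WT and -0.07 in KO, and the calls split into 1565 higher and 2263 lower in WT and 455 higher and 1500 lower in KO.

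The difference between the 2 late changes was called for 2 transcripts, Ctla2a and Gm7970, both higher, which is 0.00953% of those tested, and for none in the lower direction. At an unadjusted p below 0.05 there were 858 higher (4.09%) and 383 lower (1.82%), together 5.91%. A share near 0.05 is expected below this threshold with no difference at all, so these transcripts are not shown to differ. The median over all transcripts was 0.11. Other tools made more calls: DESeq2 on the same scaling called 92 higher and 33 lower, and TMM scaling in edgeR called 26 higher and 3 lower. The 2 KO MII libraries had unequal weight, since leaving out KO MII replicate 2 gave 129 higher and 7 lower calls, and leaving out KO MII replicate 1 gave 6 higher and 1 lower, with the median of all transcripts at 0.47 and -0.66 respectively. There were 0 calls with a replicate block, and 0 without WT MII replicate 1, without WT MII replicate 2 or without KO GVBD replicate 2.

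Among the 858 transcripts on the higher side, the level at MII was at least 2-fold below that at GVBD for 846 in WT and for 309 in KO. The gap between the genotypes was wider at MII than at GVBD in 545 of them (63.5%), and 386 had KO and WT levels within 2-fold at GVBD. On the lower side, 313 of 383 had lost 2-fold or more by MII in KO, and 163 had gained 2-fold or more in WT. The values that chose these transcripts are the same ones that are counted here, so the counts describe where the difference lay and test nothing.

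**Figure D1:**
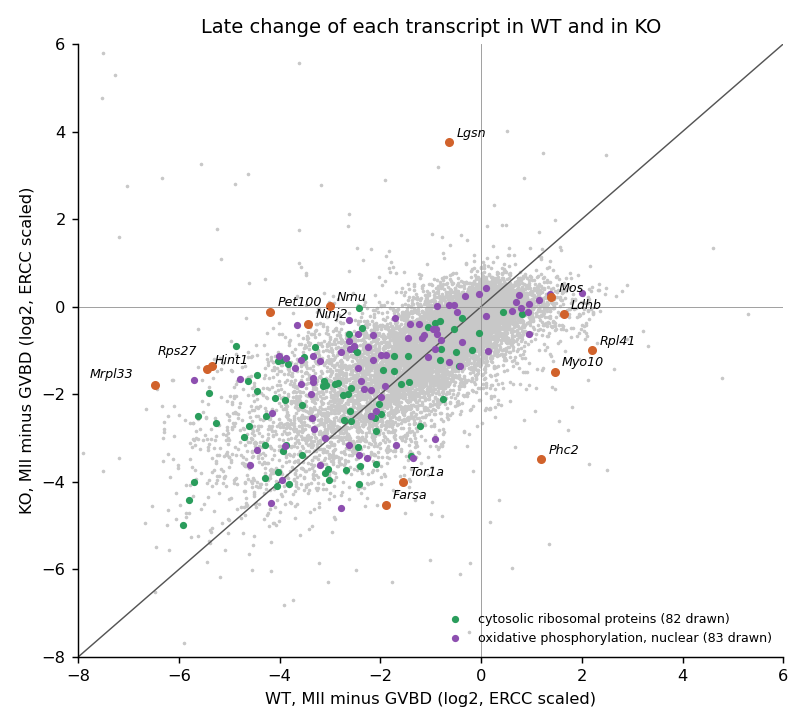
Late change (MII minus GVBD, log2, ERCC scaled) of each transcript in WT (horizontal axis) against KO (vertical axis), for 10462 of the 10494 tested transcripts at or above the median level (32 lie outside the axes); the diagonal marks equal change. Green and purple points are ribosomal protein and oxidative phosphorylation genes, and labelled orange points are genes named in the text: Pet100, Nmu, Ninj2, Hint1, Mrpl33 and Rps27 lie far above the diagonal, Phc2, Farsa, Tor1a, Myo10 and Rpl41 below it.

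Ctla2a encodes a small inhibitor of cysteine proteases (chr13:60934155-60936625, GRCm38, minus strand). Its raw counts were 459 and 683 in WT GVBD, 11 and 13 in WT MII, 11 and 14 in KO GVBD, and 100 and 217 in KO MII. The transcript fell in WT and rose in KO, with no overlap between the stages in either genotype, so the KO and WT levels changed places between the stages. On the scaled counts the change was -6.33 ± 0.86 (SE) in WT and 2.93 ± 0.75 in KO, and the difference was 9.26 ± 1.13 (adjusted p = 0.0174). Leaving out any 1 library kept the difference between 8.91 and 9.55. The call was lost with a replicate block (adjusted p = 0.0745) and over all alternatives the adjusted p ran up to 0.425. The summed blood markers were likewise high in both WT GVBD libraries and low in both WT MII libraries. In KO they made up 0.00141% and 0.0028% of endogenous counts at GVBD, and 0.0571% and 0.000704% at MII. Ctla2a was the higher in KO MII replicate 2, the library with less of these markers. In the GV libraries, which did not enter the comparison, it had 185 and 729 scaled counts in WT and 968 and 996 in KO. The markers made up 0.00397% and 0.338% of those WT libraries and 0.191% and 0.322% of those KO libraries. The part of blood RNA in the result was not tested. The neighbour and close paralogue Ctla2b averaged 30.9 scaled counts against 203 for Ctla2a, and reads may have been shared between them.

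Gm7970 is a protein-coding gene with no given function in a cluster of similar predicted genes (chr14:41550120-41555583, minus strand). Its raw counts were 249 and 194 in WT GVBD, 0 and 0 in WT MII, 189 and 285 in KO GVBD, and 242 and 491 in KO MII. Of the 8 libraries, only those of WT MII had no count, and its fall in WT was at least 132-fold, taking a floor of 3 counts per library. The difference was called (adjusted p = 0.0360), but not with a replicate block (adjusted p = 0.167), and the adjusted p reached 0.523 over the alternatives. KO MII held 95.1% of the KO GVBD level. Reads could have been split among near-identical copies: of 30 other tested predicted or zinc finger genes within 3 Mb, 23 had a positive difference and their median was 0.39.

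To describe transcripts that differed from a like starting level, the 12 with the smallest unadjusted p were taken among those with a gene symbol other than a predicted, Rik or pseudogene name, a level at or above the median of 123 scaled counts, and KO and WT within 2-fold at GVBD. They were Zfp966, Pet100, Zbtb8os, Mrpl33, Chchd2, Rps27, Hint1, Rpl22l1, Ninj2, Ebi3, BC039966 and Nmu, a choice made after the values were seen, and none passed the threshold for the genotype difference (log2 3.01 to 10.98, adjusted p 0.0681 to 0.445). Zfp966 had no count in WT MII, so its fitted values here are no measure of size. All 12 were called lower at MII in WT and none in KO (12.1% and 5.41% over all transcripts). WT MII held 0% to 12.5% of the mean WT GVBD level, and KO MII held 20.7% to 100% of the mean KO GVBD level. In all 12, both KO MII libraries lay above both WT MII libraries, an order seen in 20.3% of all tested transcripts, and 7 of the 12 were called higher in KO at MII, a call made for 0.0619% of all transcripts. Choosing members by the p of the genotype difference at a like GVBD level fixes this order, so these counts describe the 12 and test nothing.

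**Figure D2:**
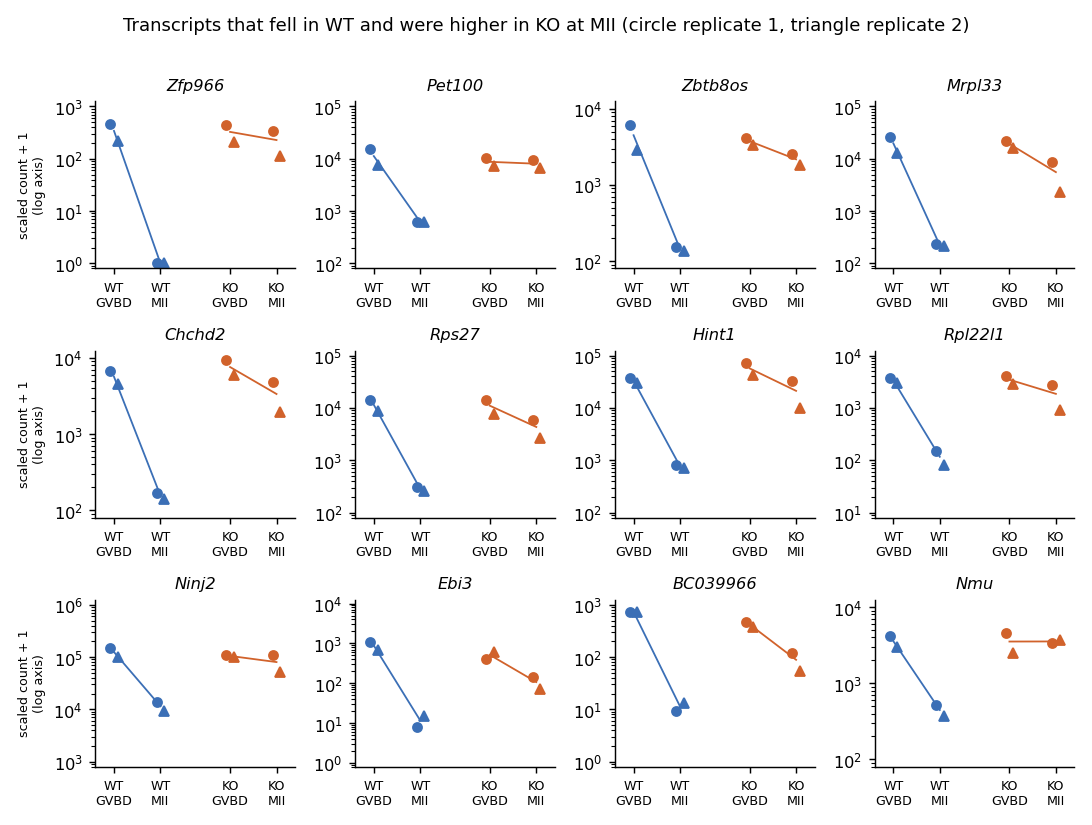
Scaled count + 1 (log axis) of 12 transcripts in each of the 8 libraries; circles are replicate 1, triangles replicate 2 and lines join the group means, with WT in blue and KO in orange. In every panel both WT MII points lie below the 6 other points, and the KO MII mean ranges from 20.7% of the KO GVBD mean (Ebi3) to 100% (Nmu).

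Pet100, Mrpl33 and Chchd2 encode mitochondrial proteins. Pet100, which is needed to assemble cytochrome c oxidase, had scaled counts of 15048 and 7459 in WT GVBD, 611 and 622 in WT MII, 10254 and 7226 in KO GVBD, and 9275 and 6805 in KO MII. It thus kept 92% of its GVBD level in KO and 5.48% in WT, and the difference was 4.07 ± 0.81 (adjusted p = 0.159). Mrpl33, a protein of the large mitochondrial ribosomal subunit, was more abundant at GVBD, with 26641 and 12792 in WT and 22094 and 16367 in KO. At MII it had 231 and 210 in WT against 8773 and 2338 in KO, so that 1.12% of the GVBD mean remained in WT and 28.9% in KO. Chchd2, a protein of the mitochondrial intermembrane space, kept 2.73% in WT and 44.3% in KO.

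Other members belong to the translation machinery, RNA processing and nucleotide metabolism. Hint1, a nucleotide hydrolase, was among the most abundant of them: 36580 and 29719 in WT GVBD, 821 and 711 in WT MII, 71130 and 42759 in KO GVBD, and 32613 and 9767 in KO MII. Rps27, a protein of the small cytosolic ribosomal subunit, went from 14103 and 8837 to 307 and 256 in WT, and from 14345 and 7682 to 5965 and 2675 in KO. Zbtb8os, the archease that assists the tRNA ligase, went from 6067 and 2914 to 151 and 136 in WT, and from 4152 and 3347 to 2512 and 1826 in KO. For these 3 genes and for Pet100, Mrpl33, Chchd2 and Zfp966, KO and WT at MII differed by 3.70 to 10.92 (adjusted p 0.0233 to 0.0486 in the 6 besides Zfp966). The upper value is that of Zfp966 and is no measure of size. The replicates of KO MII were far apart for Hint1, where replicate 1 was the higher, as it was in 11 of the 12 genes.

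Nmu, which encodes the neuropeptide neuromedin U, had 3359 and 3712 scaled counts in KO MII against 4540 and 2510 in KO GVBD, so the replicates of the 2 stages overlapped, whereas in WT it went from 4119 and 3010 to 522 and 366. Ninj2, a cell adhesion protein and the most abundant of the set, went from 149380 and 99849 to 13717 and 9252 in WT, and from 109430 and 100740 to 108750 and 51606 in KO. Ebi3, a cytokine subunit, and BC039966, an antisense RNA by annotation whose reads cannot be told from those of an overlapping gene without a stated strand setting, had the lowest levels left in KO and kept 20.7% and 20.8% in KO against 1.20% and 1.42% in WT. The direction of all 12 was the same in each alternative in which they were tested. The lowest value was 2.41, when KO MII replicate 1 was left out. With TMM scaling 9 of the 12 were called, with DESeq2 12 and with a replicate block 0. Over all 20992 transcripts those settings called 29, 125 and 0. The 12 were chosen by the p of the same difference in the same libraries, so these counts test nothing.

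Lgsn, which codes for a glutamine synthetase-like protein known from the lens, differed in another way. Its scaled counts were 1798 and 2639 in WT GVBD, 1700 and 1152 in WT MII, 362 and 238 in KO GVBD, and 5154 and 2931 in KO MII. The KO level was below WT at GVBD and above it at MII, with no overlap at either stage, while WT went down and KO up, an order of opposite changes seen in 0.634% of all transcripts. The rise within KO was called (3.76 ± 0.65, adjusted p = 0.0106). The difference of 4.39 ± 0.86 did not pass (adjusted p = 0.159).

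Coding sequences in the set chosen for like GVBD levels were short. The 11 coding genes had a median of 429 coding bases (195 to 1455), against 1350 over all 15183 tested coding genes with a model in GENCODE M21, and 9 of the 11 were under 600 bases. Over all coding genes at or above the median level, the genotype difference had a median of 0.34 in those that encode up to 100 amino acids and also in those with 100 to 150, of 0.05 for 200 to 300, and of -0.12 for 800 to 1200. In WT the late change went from -1.54 in genes of 100 to 150 amino acids to -0.38 in genes of over 1200, and in KO from -1.04 to -0.45, with a median genotype gap of 0.68 at MII for 100 to 150 amino acids and 0.16 for over 1200. The correlation over 8802 genes was weak (Spearman's rho of -0.13 with coding length and -0.20 with GC content). These genes share the same 8 libraries, and GC content had a rho of 0.38 with the KO minus WT difference at GVBD, so base composition moved with the result, and its part in it was not tested.

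The 3' UTR was inspected for TTTTAT, the sequence of the cytoplasmic polyadenylation element written as DNA, which binds CPEB1 in maturing oocytes. It was searched on the transcript strand only, in 1 transcript per gene, and 50.3% of the tested coding genes with a 3' UTR held it. The windows below are shown because they come from transcripts that held 114% and 268% of their GVBD mean at WT MII (Ccnb1, H1foo), that kept more in KO (Zfp966, Pet100, Zbtb8os) or that kept less in KO (Tor1a), with the motif in capitals; each is the match nearest to the transcript end whose window lies in a single exon.
Ccnb1: tatgggttcaTTTTATcaacagtatt
H1foo: attctgaagcTTTTATtgtctaataa
Zfp966: gtggtaaatgTTTTATaagtcacagt
Pet100: gtgccaagtgTTTTATtgttttcagg
Zbtb8os: catgctgcggTTTTATtaatccagtc
Tor1a: tgtgataacgTTTTATttaaaatggt
In GRCm38 they lie at chr13:100779071-100779096 (minus strand), chr6:115950159-115950184 (plus), chr2:175919324-175919349 (minus), chr8:3623381-3623406 (plus), chr4:129348746-129348771 (plus) and chr2:30960651-30960676 (minus). The motif lay 57 bases from the transcript end in H1foo and 34 in Tor1a, against 431 in Ccnb1, 839 in Pet100 and 1110 in Zbtb8os. Of the set chosen for like GVBD levels, 3 of 11 coding genes held a match. Across all coding genes with a 3' UTR, transcripts with a match changed late by a median of -0.81 in WT and -0.63 in KO, and those without by -1.44 and -1.18. The genotype difference had a median of 0.03 with a match and 0.05 without. Transcripts with a match also had longer 3' UTRs (median 1561 bases against 408).

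Cytosolic ribosomal protein genes had a median late change of -2.64 in WT and -1.98 in KO. Of 88 tested, 51 were called lower in WT and 25 in KO, against 12.1% and 5.41% of all transcripts. More calls in WT than in KO were thus made over all transcripts too, and the difference between the counts was not tested. In these genes the genotype difference had a median of 0.48 with 54 of 88 above 0, against 0.11 and 54.4% over all transcripts. At an unadjusted p below 0.05, 15 were higher and 2 lower (4.09% and 1.82% over all transcripts), and none passed the adjusted threshold. Rpl5, a protein of the large subunit that also carries 5S rRNA, had scaled counts of 64244 and 47522 in WT GVBD, 3906 and 2904 in WT MII, 70249 and 48683 in KO GVBD, and 35858 and 14683 in KO MII. Its late change was -4.04 in WT (called) and -1.23 in KO (not called), with a difference of 2.80 ± 0.79 (adjusted p = 0.492). Rpl39 went from 46498 and 35879 to 2081 and 1684 in WT and from 59850 and 37918 to 23233 and 9958 in KO. Not all members followed this order. Rplp0, the stalk protein of the large subunit, kept 38.0% in WT and 9.36% in KO, and Rpl41, its smallest protein, rose in WT from 4082 and 2236 to 16007 and 13215 (called, adjusted p = 0.0365), while in KO it went from 8698 and 19512 to 9794 and 4287. Many ribosomal protein genes have processed pseudogenes, and reads may have been split among the copies.

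Nuclear genes of oxidative phosphorylation showed a like pattern. Of 92 tested, 59 had a difference above 0, the median was 0.47, and 11 were higher and 1 lower at an unadjusted p below 0.05 (4.09% and 1.82% over all transcripts). At MII 40 were called lower in WT and 16 in KO, beside 12.1% and 5.41% of all transcripts. Both KO MII libraries lay above both WT MII libraries in 44 of the 92 (47.8%, against 20.3% of all transcripts). Atp5j2, a subunit of the membrane part of ATP synthase, was at 95025 and 75677 in WT GVBD and 118420 and 117250 in KO GVBD. By MII it had 2922 and 3235 in WT and 59921 and 15193 in KO, or 3.61% and 31.9% of the GVBD level. Atp5j, the coupling factor of the same enzyme, kept 7.93% in WT and 75.2% in KO, with MII values of 16027 and 4527 in KO against 1371 and 1003 in WT. Ndufc1, an accessory subunit of complex I, kept 1.9% in WT and 31.4% in KO. The opposite order was seen for Ndufv1, a catalytic subunit of complex I (53.0% in WT and 12.4% in KO), and Uqcrc1, a core subunit of complex III (39.3% and 9.09%), both called lower in KO and not in WT. For Ndufv1, KO minus WT was 1.48 at GVBD and -0.62 at MII.

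The position of these lists relative to all transcripts depended to different degrees on the KO MII libraries. The oxidative phosphorylation median stood 0.36 above that of all transcripts, and 0.35 and 0.45 above it without KO MII replicate 1 and without replicate 2. The cytosolic ribosomal protein median stood 0.37 above, and 0.05 without KO MII replicate 1 against 0.57 without replicate 2. Mitochondrially encoded mRNAs stood 0.78 below all transcripts, with 1 of 13 above 0. They stood 0.27 above all transcripts without KO MII replicate 1 and 1.51 below without replicate 2. Their place relative to all transcripts thus rested on KO MII replicate 1. Their own median was -0.39 and -1.04 in those fits, while that of all transcripts was -0.66 and 0.47. It was below 0 in all 16 alternatives (-1.24 to -0.12). Within that list mt-Atp6 had 28276 scaled counts in WT MII replicate 1 and between 644 and 3548 in the other 7 libraries, and the MII values of mt-Nd3 were 1982 and 1351 for WT against 454 and 977 for KO.

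**Figure D3:**
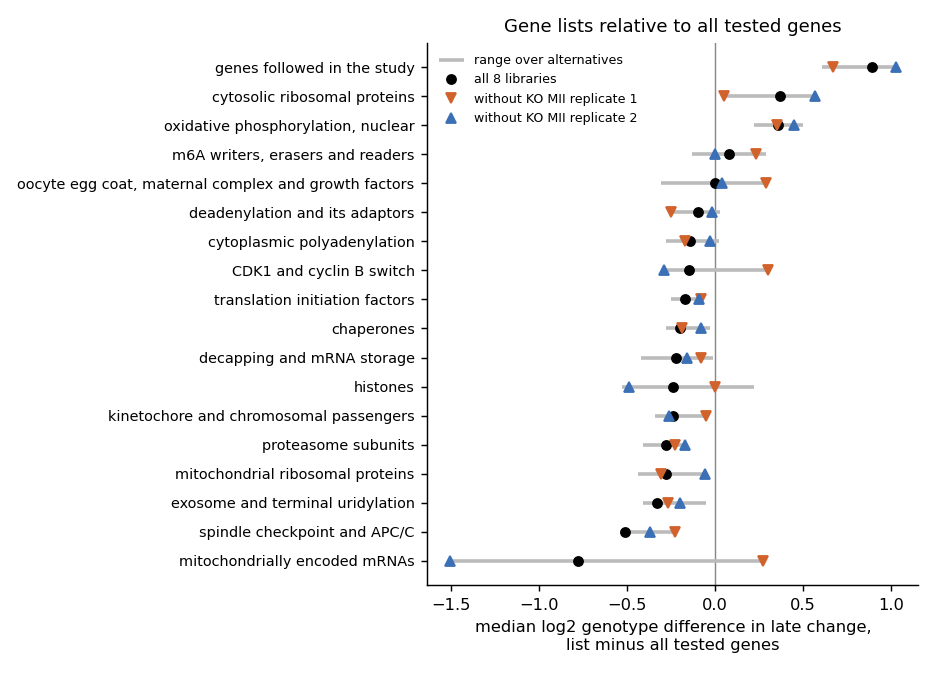
Median log2 genotype difference in late change of each gene list minus the median of all tested transcripts. Black points use all 8 libraries, orange and blue triangles leave out KO MII replicate 1 and replicate 2, and grey bars span all alternatives; the oxidative phosphorylation list stays between 0.22 and 0.50 and mitochondrially encoded mRNAs run from -1.51 to 0.27.

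Other lists of abundant housekeeping genes stood near or below the median. Mitochondrial ribosomal proteins had a median of -0.17 with 34 of 78 above 0. Mrps18c of the small subunit kept 1.53% in WT and 8.09% in KO, Mrps27 kept 32.9% and 6.81%, and Mrps5 was at 442% of its GVBD mean in WT and 82.0% in KO. Proteasome subunits also had a median of -0.17, with 21 of 48 above 0 and with members on both sides. The catalytic subunit Psmb7 kept 2.04% in WT and 16.9% in KO, and Psmb4 kept 4.35% and 24.5%. Psmb3 lay on the other side, and went from 7194 and 5379 to 18255 and 10808 in WT and from 20328 and 15666 to 13183 and 9789 in KO, while the assembly chaperone gene Psmg3 kept 94.3% in WT and 15.1% in KO. For translation initiation factors (54 tested) the median was -0.06 and for chaperones (33 tested) it was -0.09. Among them Eif2b4 kept 22.6% in WT and 6.25% in KO, Eif3d 52.2% and 15.2%, and the chaperone gene Hspa8 57.4% and 18.6%, all 3 called lower in KO and not in WT. None of these genes passed the threshold for the genotype difference. Among those with a negative difference, KO minus WT at GVBD was 1.52 for Psmb3, 2.51 for Psmg3, 1.91 for Mrps27 and 1.15 for Eif2b4. At MII it was -0.34, -0.14, -0.37 and -0.70, and Eif3d had 1.175 at GVBD and -0.605 at MII. The MII side was the larger for Mrps5 (0.99 at GVBD and -1.44 at MII) and Hspa8 (0.385 and -1.24).

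Genes of the decay and m6A machinery themselves had medians between -0.22 and 0.19, beside 0.11 over all transcripts. The lowest was that of the exosome and terminal uridylation, with 5 of 19 genes above 0 and a median of -0.22. The median difference was 0.01 over 24 genes of deadenylation and its adaptors, -0.11 over 22 of decapping and mRNA storage, -0.03 over 27 of cytoplasmic polyadenylation and 0.19 over 21 m6A writers, erasers and readers. None of these was called. Ythdf2, the m6A reader that recruits the deadenylase, kept 38.9% in WT and 71.3% in KO (difference 0.88 ± 0.82). Pabpc1, the poly(A)-binding protein of somatic cells, went from 1298 and 1357 to 444 and 227 in WT, and from 525 and 580 to 1006 and 119 in KO, so its KO replicates at MII were on either side of GVBD. Pabpn1l, the nuclear-type poly(A)-binding protein of oocytes, was above WT in KO at both stages: 4366 and 4862 against 27146 and 16871 at GVBD, and 9030 and 6616 against 17788 and 17646 at MII. The CCR4-NOT subunit Cnot10 kept 27.2% in WT and 9.22% in KO.

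Of the genes that drive meiosis, Ccnb1, which encodes cyclin B1, had a difference of 0.14 ± 0.70, with scaled counts at MII of 40823 to 62429 in WT and 55121 to 64280 in KO. The median of the CDK1 and cyclin B list was -0.04 over 20 genes, and that of the spindle checkpoint and APC/C list was -0.40 over 28, with 10 of 28 above 0. The kinetochore and chromosomal passenger list had a median of -0.13 over 26 genes, and histones of -0.13 over 33. Several regulators had a higher level at MII than at GVBD in WT, but none of those named here passed the test for a late change in either genotype. Mos, the kinase that holds the MII arrest, went from 3294 and 4859 to 12427 and 8970 in WT and from 12102 and 8365 to 14419 and 9236 in KO. The KO GVBD values thus lay in the range of the WT MII values or just below it. Cks1b, a small partner of CDK1, went from 6518 and 3690 to 15033 and 11143 in WT and from 6506 and 8779 to 7740 and 5411 in KO. Aurka, the spindle pole kinase, went from 6670 and 7259 to 14373 and 8704 in WT and from 15053 and 10724 to 9708 and 3381 in KO. Cdc25a, a phosphatase that activates CDK1, was at 302 and 287 in WT GVBD and 2026 and 791 in KO GVBD, and the MII values overlapped.

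Oocyte genes had a median of 0.11 over 24 tested. The egg coat genes Zp2 and Zp3 kept more in KO: Zp2 went from 89545 and 68170 to 17000 and 8331 in WT and from 106000 and 61604 to 63418 and 31058 in KO, and was called lower in WT only, though the difference (1.81 ± 0.80, adjusted p = 0.808) did not pass. Zp3 kept 28.3% in WT and 63.1% in KO. Figla, the transcription factor that activates the zona genes, kept 3.29% and 18.6%, and Ybx2, a Y-box protein that packages stored mRNA, 11.2% and 30.9%. H1foo, the linker histone of the oocyte, went from 42267 and 31298 to 112510 and 84471 in WT (not called) and from 85133 and 75963 to 94429 and 62237 in KO. Gdf9, the growth factor that acts on cumulus cells, had 160% of its GVBD mean in WT and 105% in KO at MII, and Nobox, an oocyte transcription factor, 113% and 34.0%.

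The 17 transcripts that the study itself followed had a median difference of 1 over the 16 tested, with 15 of 16 above 0. The study chose most of them on these libraries, so this is not independent evidence of direction. In 12 of the 16 both KO MII libraries lay above both WT MII libraries (20.3% over all transcripts), 10 were called lower in WT and 0 in KO (12.1% and 5.41%), 5 were higher at an unadjusted p below 0.05 (4.09%), and none was called for the genotype difference. Without KO MII replicate 1 the median was 0.02, against -0.66 over all transcripts in the same fit. Esrrb, an orphan nuclear receptor, kept 23.2% in WT and 45.4% in KO, but was at 4628 and 5463 in WT GVBD against 11008 and 14528 in KO GVBD, so KO stood above WT by 1.34 at GVBD and 2.31 at MII. Zwint and Ska3, proteins of the outer kinetochore, kept 10.4% and 12.5% in WT and 23.1% and 25.8% in KO. Birc5, the survivin subunit of the chromosomal passenger complex, kept 36.9% and 75.4%.

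Zinc finger genes near Zfp966 on chromosome 2 mostly had differences above 0. Zfp966 itself (chr2:175918881-175931100, minus strand) had raw counts of 324 and 229 in WT GVBD, 0 and 0 in WT MII, 252 and 178 in KO GVBD, and 319 and 148 in KO MII, or at least 166-fold lower in WT at the later stage. Within 3 Mb on either side, 42 other coding genes with Zfp or Gm symbols were tested, in a window chosen after the values were seen. Their late change had a median of -3.47 in WT and -1.35 in KO, 36 of the 42 had a difference above 0 (median 1.33), and in 20 (47.6%) both KO MII libraries lay above both WT MII libraries, as in 20.3% of all transcripts. None was called for the difference, while 21 were called lower in WT and 6 in KO (12.1% and 5.41% over all transcripts). Many of these genes resemble each other closely and may share reads, so they are not separate measurements. The median was 0.44 without KO MII replicate 1 and 1.79 without replicate 2, against -0.66 and 0.47 over all transcripts.

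Among transcripts with a negative difference, a level at or above the median and a symbol other than a predicted name, Phc2 came next by unadjusted p after a T cell receptor segment. It encodes a subunit of Polycomb repressive complex 1 (chr4:128654702-128752881, plus strand) and had 378 and 211 scaled counts in WT GVBD, 900 and 442 in WT MII, 635 and 507 in KO GVBD, and 64.1 and 37.5 in KO MII. Neither genotype overlapped between the stages, with WT going up and KO down as in 0.724% of all transcripts, and the KO MII libraries lay below all others. The fall in KO was called (-3.49 ± 0.75, adjusted p = 0.0204) and the higher level in WT was not. Its difference was -4.68 ± 1.01 (adjusted p = 0.202), -5.12 without KO MII replicate 1 and -4.34 without replicate 2, and it was called with TMM scaling (adjusted p = 0.0310). Sys1, a Golgi membrane protein, was at 126 and 62.4, then 145 and 95.2 in WT, and at 263 and 273, then 22.4 and 3.06 in KO. Kctd3 rested on a single library, with 3743 scaled counts in KO GVBD replicate 2 and 84.9 to 544 in the other 7.

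A second set was taken from transcripts whose replicates were within 2-fold of each other in every group, again by unadjusted p after the values were seen: Myo10, Spag7, Tor1a, Gpn2, Fam221b, Tubg1, Farsa, Poc1a, Gps2, Ldhb, Fbxl6 and Serf2. Their differences ran from -2.95 to -1.81, and none passed (adjusted p 0.494 to 0.708). Of these, 5 were called lower at MII in KO and none in WT (5.41% and 12.1% over all transcripts). Tor1a, the ATPase torsin A of the endoplasmic reticulum, went from 3628 and 3640 to 1501 and 965 in WT and from 10856 and 6981 to 609 and 509 in KO, and Farsa, a subunit of phenylalanyl-tRNA synthetase, from 498 and 388 to 132 and 106 in WT and from 1511 and 894 to 48.1 and 55.8 in KO. In both genes KO was above WT at GVBD and below it at MII. Spag7, Gpn2 and Poc1a kept 112%, 79.0% and 78.6% in WT and 19.7%, 13.6% and 14.0% in KO.

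Another 4 of the set, Ldhb, Fam221b, Gps2 and Serf2, were called higher at MII in WT and none in KO (0.167% and 0.0476% over all transcripts). Ldhb, a subunit of lactate dehydrogenase and the most abundant of them, went from 126320 and 89378 to 403680 and 269720 in WT (adjusted p = 0.0382) and from 215930 and 263230 to 234650 and 191460 in KO. Fam221b went from 915 and 749 to 4171 and 2842 in WT and from 1492 and 2222 to 1811 and 970 in KO. Myo10, an actin motor of filopodia, and Tubg1, the gamma-tubulin of microtubule nucleation, were not called in either genotype. Myo10 went from 879 and 499 to 2390 and 1406 in WT and from 4232 and 4381 to 1949 and 1129 in KO. Tubg1 went from 155 and 164 to 582 and 427 in WT and from 662 and 442 to 316 and 226 in KO. Gps2, a corepressor subunit, was at 470% of its GVBD mean in WT and 90.1% in KO, and Fbxl6, an F-box protein, at 353% and 71.0%. Serf2 was at 561% and 135%. Thoc6, a component of the mRNA export complex TREX outside this set, was at 435% and 31.2%. In 8 of the 12 both KO MII libraries lay below both WT MII libraries (10.2% over all transcripts), and in all 12 both KO GVBD libraries lay above both WT GVBD libraries (29.4% over all transcripts). The choice by the p of a negative difference favours both orders and the calls of late change above, so nothing is read from these counts. For some members the GVBD side carried the difference: KO stood above WT at GVBD by 2.38 for Fbxl6 and by 2.26 for Poc1a on the log2 scale, while KO minus WT at MII was 0.07 and -0.22.

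**Figure D4:**
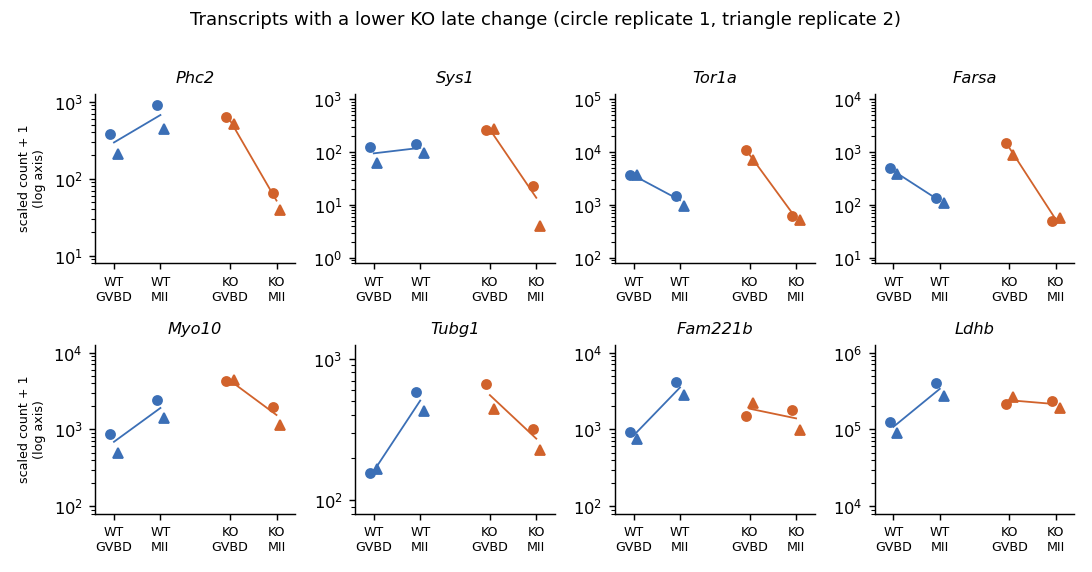
Scaled count + 1 (log axis) in each of the 8 libraries of 8 transcripts with a negative genotype difference; circles are replicate 1, triangles replicate 2 and lines join the group means. Phc2, Sys1, Tor1a and Farsa reach 4.32% to 8.89% of the GVBD mean in KO at MII, while Myo10, Tubg1, Fam221b and Ldhb reach 275% to 422% of it in WT and 35.7% to 88.9% in KO.

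By size, the leading transcripts were genes of other tissues, whose presence differed between whole groups for some genes and between libraries of the same group. Of the 12 with the smallest unadjusted p on the higher side at or above the median level, several are typical of red cells and platelets, among them Alas2, Hbb-bt, Hba-a1 and Hba-a2 of haem and globin synthesis, and Ppbp, Itga2b and Nrgn. Hba-a1 had 61298 and 34362 scaled counts in WT GVBD, 81.7 and 226 in WT MII, 31.6 and 83.5 in KO GVBD, and 12271 and 8.41 in KO MII. Only 1 of the KO MII libraries was thus high, and without KO MII replicate 1 the difference of Hba-a1 went from 14.99 to 5.49 and that of Hba-a2 from 14.85 to -0.22. Ube2l6, a ubiquitin-like conjugating enzyme, had 145 in KO MII replicate 1 and 4.59 in replicate 2. All 10 tested blood and immune markers had a difference above 0. For many blood genes the fitted size rests on libraries at or near 0, so the values above for Hba-a1 and Hba-a2 are no measure of size.

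On the lower side the counterpart was cardiac muscle. Tnnt2, the cardiac troponin T gene, had 517 and 923 in WT GVBD, 857 and 239 in WT MII, 0 and 1171 in KO GVBD, and 0 and 0 in KO MII. Actc1, Myl3, Ankrd1 and Mybpc3 were at 0 in the same 3 libraries, and Fabp3, the fatty acid-binding protein of heart, was at 0 in both KO MII libraries and at 14.0 in KO GVBD replicate 1. Without KO GVBD replicate 2 the difference of Tnnt2 was 0.39 in place of -11.90, a fitted value that is no measure of size because KO MII was at 0, and those of the other 4 were 0.17 to 0.50. The cardiac list as a whole had 2 of 10 above 0. Tnni3, cardiac troponin I, and Ryr2, the cardiac calcium release channel, were present in all 8 libraries. Tnni3 went from 41866 and 23592 to 1751 and 1048 in WT and from 20939 and 22924 to 10277 and 1854 in KO. Epidermal Krt14 was at 1830 and 630 in WT GVBD and 0 in the other 6 libraries, so that no genotype difference could be estimated for it. Cumulus and granulosa cell markers, the cells that surround the oocyte, stayed between 0.00388% and 0.0086% of endogenous counts, with 9 of 13 tested and a median difference of 0.62. Epidermal markers took 0.0101% and 0.00785% of endogenous counts in WT GVBD and at most 0.00258% in the other libraries. Liver markers had a median difference of 0.54 over 7 genes, with a range of -8.49 to 11.35 over the alternatives. The part of tissue RNA in the genotype difference of other transcripts was not tested.

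**Figure D5:**
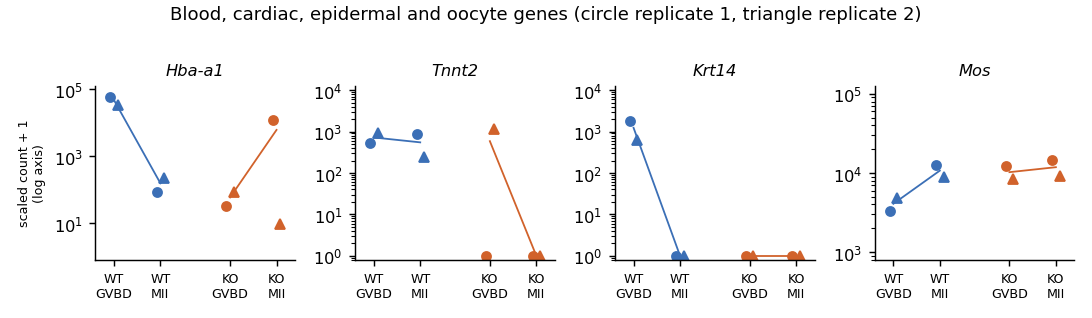
Scaled count + 1 (log axis) of a globin gene (Hba-a1), a cardiac gene (Tnnt2), an epidermal keratin (Krt14) and an oocyte kinase (Mos) in each of the 8 libraries; circles are replicate 1, triangles replicate 2 and lines join the group means. Hba-a1 is high in both WT GVBD libraries and KO MII replicate 1, Tnnt2 is at 0 in 3 KO libraries, Krt14 is above 0 only in WT GVBD, and Mos is present in all 8 (3294 to 14419).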

How the data were processed

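Per the labels and the submitters' processing notes, polyadenylated RNA with ERCC spike-ins was sequenced, reads were trimmed with cutadapt 1.9 and aligned to mm10 with HISAT2 2.0.4, and StringTie 1.3.4d was used; the counting step, its strand setting and the annotation release were not given in the sources used here. The authors deposited raw counts per gene for 56691 genes. All values here were computed from them. Counts were scaled to the summed ERCC counts, genes were kept by filterByExpr over 4 groups of 2 libraries, and edgeR 4.0.16 (quasi-likelihood, R 4.3.3) tested (KO MII minus KO GVBD) minus (WT MII minus WT GVBD), with Benjamini-Hochberg adjustment over 20992 genes. A call needed an adjusted p under 0.05 and an absolute log2 value of at least 1. DESeq2 1.42.0, other scalings, other filters and leaving out each library were alternatives, and the code was tested on simulated data. Symbols and positions came from GENCODE M21 (91.9% of genes). The rule for leading genes took the 12 smallest p per direction at or above the median level; the 2 other sets of 12 and the neighbourhood window were added after values were seen. Members and lists were chosen with earlier results of these data known. Library totals (29968490 to 40247810 counts) limit precision for counting error only. Results on 1 gene that met these rules are not reported here.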

Additional observations from a re-analysis of the deposited data

Results flagged for a closer look

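Several transcripts were picked out because WT and KO changed differently between GVBD and MII. For Ctla2a (9.26) and Gm7970 (11.1, both log2 genotype differences) the difference passed the test, edgeR's quasi-likelihood test over all transcripts. Gm7970 had no count in WT MII, so its value is no measure of size. For the rest every library moved one way in WT and the opposite way in KO, and the difference did not pass that test, so that it is not shown. Lgsn, with a difference of 4.39, was lower at MII in WT and higher in KO. That order was seen in 133 transcripts (0.634%).

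The opposite order, higher at MII in WT and lower in KO, was seen in 152 transcripts (0.724%). Among those named here were Psmb3 (-1.86), mt-Nd3 (-1.58), Phc2 (-4.68), Myo10 (-2.95), Tubg1 (-2.69), Fbxl6 (-2.31), Thoc6 (-3.8), Aurka (-1.71) and Trav7n-6 (-6.4). Trav7n-6, a T cell receptor variable segment, was at 0 and 7.56 in WT GVBD, 119 and 116 in WT MII, 734 and 690 in KO GVBD, and 178 and 284 in KO MII.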

How the results depend on the processing

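The count of 2 called genotype differences (1241 at an unadjusted p below 0.05) was 2 with ERCC sequences of at least 10 counts, with all 12 libraries in a single model and with no fold minimum. It was 29 with TMM scaling, 30 with median-of-ratios scaling, 195 with no filter on low counts, 38 with at least 10 counts in every library, 125 with DESeq2, and 0 to 136 when 1 library was left out: 0 without either WT MII library or KO GVBD replicate 2, 15 and 14 without WT GVBD replicates 1 and 2, 20 without KO GVBD replicate 1, 7 without KO MII replicate 1 and 136 without KO MII replicate 2. The cause was not tested. Calls of late change numbered 2572 in WT and 1146 in KO. They were 3828 and 1955 with TMM, 3725 and 1956 with median-of-ratios scaling, 3464 and 2272 with no filter, 3255 and 2295 with at least 10 counts in every library, 4259 and 2992 with DESeq2, 3897 and 2387 with all 12 libraries, and 5321 and 1008 with only the 4 libraries of the groups compared. Leaving out 1 library gave 0 to 4841 in WT (0 without either WT MII library, 972 without WT GVBD replicate 1, 4841 without either KO MII library) and 208 to 4968 in KO (255 and 457 without KO GVBD replicates 1 and 2, 4968 and 208 without KO MII replicates 1 and 2). In those fits a group with 1 library was assumed to vary like the others.

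Gene by gene, samples with the same replicate number did not deviate together throughout (correlations of -0.22 to 0.22 over 13375 genes). The numbers were not taken as pairs. These correlations cannot see a shift shared by all genes, so they do not decide whether the numbers mark pairs. The totals did move together: endogenous counts per ERCC count were higher in replicate 1 of every group compared. They were 112 against 75.3 in WT GVBD and 73.3 against 47 in WT MII. In KO they were 121 against 98.5 at GVBD and 87.9 against 54.7 at MII. With a replicate block the calls were 0 for the genotype difference, 3690 in WT and 2839 in KO.

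Among named transcripts, the genotype difference changed sign without WT GVBD replicate 1 for Alkbh5 (-0.4) and Actb (-0.39), without WT MII replicate 2 for Actb (-0.06) and Ccnb1 (-0.14), and without KO GVBD replicate 2 for Ccnb1 (-0.11), Tnnt2 (0.39), Actc1 (0.5), Myl3 (0.46), Ankrd1 (0.17) and Mybpc3 (0.31). Without KO MII replicate 1 it did so for Actb (-0.16), Esrrb (-0.23), Ska3 (-0.18), Pabpc1 (-0.23) and Hba-a2 (-0.22). Over all fits that left out 1 library, the range was -0.4 to 1.1 for Alkbh5, -0.39 to 0.6 for Actb, -0.14 to 0.48 for Ccnb1, -0.23 to 1.62 for Esrrb, -0.18 to 1.7 for Ska3, -0.23 to 2.85 for Pabpc1, -0.22 to 15.85 for Hba-a2, -12.99 to 0.39 for Tnnt2, -12.09 to 0.5 for Actc1, -12.12 to 0.46 for Myl3, -12.76 to 0.17 for Ankrd1 and -11.41 to 0.31 for Mybpc3.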

Other observations

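The germinal vesicle libraries, which did not enter the comparison, also differed in genes of other tissues. Blood and immune markers made up 0.00397% and 0.338% of endogenous counts in WT GV and 0.191% and 0.322% in KO GV. Liver markers made up 0.0657% and 0.0348% in KO GV and at most 7.76e-05% in WT GV. Lgsn also differed between GV replicates, with 4141 and 1840 scaled counts in WT and 315 and 5741 in KO, and Kctd3 had 2123 and 122 in WT GV and 3160 and 172 in KO GV.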
